A study of Mus musculus with 7 samples.

Results

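The 9 genes Emx1, Emx2, Lhx2, Dmrta2, Otx1, Pax6, Six3, Nkx2-1 and Prox1, named homeobox and patterning factors of the developing forebrain, were followed in 7 mouse brain tumours. They were chosen by name out of 37620 gene identifiers in the count tables, and all 9 reached the counts needed for a test. The tumours grew in the brains of nude mice that had received neural stem cell derived glioblastoma cells whose source was the subventricular zone. The 3 GSC2 tumours carried the changes labelled shp53, Nf1-/- and CDK4, and the 4 GSC1 tumours carried those labelled lgT/Ras. RNA of whole tumours was read, 1 library per tumour, with 18643155 to 32643408 reads on genes. The age of the hosts is not given in the sources used here. Each combination of changes came in 1 line, so line and genotype cannot be told apart, and host and graft are both mouse, so their reads cannot be told apart either. Nude mice lack mature T cells but keep myeloid cells, vessels and all cells of the brain itself. The tumours are described as independent, and p-values measure the spread between them.

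These factors divide the front of the neural tube into territories. Emx1, Emx2, Lhx2, Dmrta2 and Pax6 act in the dorsal telencephalon, which forms the cerebral cortex and hippocampus, and several of them are also used by stem and progenitor cells of that region. Otx1 acts in the forebrain and midbrain and later in the cortex, Six3 at the anterior end of the neural plate and in the eye, and Nkx2-1 in the ventral telencephalon and hypothalamus. Prox1 marks granule neurons of the dentate gyrus as they mature and also lymphatic endothelium. Hox genes, by contrast, are used in the hindbrain and spinal cord and are off in the forebrain.

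Promoter windows are shown for Emx2, Dmrta2 and Lhx2. Emx2 and Dmrta2 had the most alike profiles across the tumours among the 9 genes. Among the genes with a window Lhx2 was the next nearest to both, whereas Otx1 was nearer still. The windows are RefSeq sequences of build GRCm38.p6 and run from 250 bases before to 50 bases after the gene start. Such windows were found for 8 of the 9 genes, with Otx1 the exception. Capitals mark matches, on either strand, to a GC box, whose letters are GGGCGG, to the box spelled CCAAT, or to a homeodomain core with the letters TAATTA. The Emx2 window is chr19:59458440-59458739, the Dmrta2 window chr4:109977775-109978074 and the Lhx2 window, the more upstream of a pair, chr2:38339031-38339330, all on the plus strand.
Emx2: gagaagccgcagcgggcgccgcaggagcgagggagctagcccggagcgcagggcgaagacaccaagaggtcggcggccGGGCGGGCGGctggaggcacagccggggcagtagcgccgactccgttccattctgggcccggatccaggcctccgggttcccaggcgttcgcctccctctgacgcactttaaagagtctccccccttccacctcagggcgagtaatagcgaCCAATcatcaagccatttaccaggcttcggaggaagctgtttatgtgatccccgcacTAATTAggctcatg
Dmrta2: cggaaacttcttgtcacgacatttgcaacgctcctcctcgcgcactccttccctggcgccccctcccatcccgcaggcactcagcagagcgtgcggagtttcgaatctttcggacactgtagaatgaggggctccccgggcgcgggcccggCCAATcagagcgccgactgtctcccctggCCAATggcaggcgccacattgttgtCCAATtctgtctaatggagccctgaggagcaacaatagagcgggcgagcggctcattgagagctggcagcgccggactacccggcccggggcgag
Lhx2: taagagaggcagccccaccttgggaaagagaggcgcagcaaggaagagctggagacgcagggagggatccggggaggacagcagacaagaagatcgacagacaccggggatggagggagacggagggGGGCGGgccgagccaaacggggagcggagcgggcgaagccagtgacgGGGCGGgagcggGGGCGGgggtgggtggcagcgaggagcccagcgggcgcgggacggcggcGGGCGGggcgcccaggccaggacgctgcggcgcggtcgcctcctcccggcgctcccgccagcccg
The Emx2 window held 2 overlapping GC boxes, 1 CCAAT box and 1 homeodomain core. The Dmrta2 window held 3 CCAAT boxes and no GC box, and the Lhx2 window 4 GC boxes and no CCAAT box. Among all 32851 windows of this length, 35.7% held a GC box, 37.4% a CCAAT box and 5.29% the homeodomain core. A TATA box (TATAAA, 13.6% of all windows), a TCF/LEF core (CTTTGAT, 3.73%) and a GLI site (TGGGTGGTC, 0.253%) matched none of the 3 windows. The GC content was 64.3% for Emx2, 63.7% for Dmrta2 and 74.7% for Lhx2, against a median of 52.7% over all windows.

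Lhx2 had the highest mean level of the 9 factors per length of transcript, although Pax6 stood above it in GSC1 replicates 3 and 4. Levels below are in CPM, the count scaled to a common library size, itself adjusted by the trimmed mean of M values (TMM), and CPM per kilobase of the longest transcript is used wherever genes are compared with each other. Over the 7 tumours Lhx2 averaged 13.1 ± 7.06 CPM per kilobase, Emx2 6.88 ± 5.24, Pax6 6.77 ± 1.84, Dmrta2 4.64 ± 3.98 and Prox1 2.83 ± 2.45 CPM per kilobase (SD, n = 7). Otx1 averaged 1.07 ± 0.648, Emx1 0.881 ± 0.831, Nkx2-1 0.366 ± 0.407 and Six3 0.203 ± 0.167 CPM per kilobase (SD, n = 7). Lhx2 lay above Emx2 in 7 of 7 tumours, whereas Emx2 lay above Pax6 in 3 of 7, Pax6 above Dmrta2 in 4 of 7 and Nkx2-1 above Six3 in 3 of 7. The last 3 of these pairs of neighbours did not differ beyond their spread. With the summed exons as length the order stayed the same in 2 of 7 tumours, and Emx2 then stood above Lhx2 in GSC2 replicate 1.

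Emx2, a homeobox gene needed for the hippocampus and for area patterning of the cortex, was at 46.6, 27.7 and 24.0 CPM in GSC2 replicates 1 to 3, against 18.6, 18.5, 1.55 and 3.48 CPM in GSC1 replicates 1 to 4. Every GSC2 tumour lay above every GSC1 tumour, and GSC1 replicates 3 and 4 lay far below the other GSC1 tumours. The fitted log2 fold change, GSC2 minus GSC1, was 1.64 (SE 0.83, quasi-likelihood test of edgeR, Benjamini-Hochberg adjusted p = 1.0, unadjusted p = 0.0859). Dmrta2, which encodes a zinc-finger factor of the DM family needed for the medial cortex, had the same pattern. It was at 35.4, 17.6 and 17.9 CPM in GSC2 tumours, against 9.82, 10.5, 1.39 and 2.29 CPM in GSC1 tumours (1.98, SE 0.74, edgeR adjusted p = 1.0, unadjusted p = 0.0297). Again the lines did not overlap, with GSC1 replicates 3 and 4 lowest.

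Lhx2, a LIM-homeobox selector gene of the cortex, was at 58.3, 41.1 and 56.0 CPM in GSC2 tumours, against 40.9, 45.6, 10.1 and 9.24 CPM in GSC1 tumours. Here GSC1 replicate 2 lay inside the GSC2 range, GSC1 replicate 1 just below it, and GSC1 replicates 3 and 4 far lower (0.97, SE 0.61, edgeR adjusted p = 1.0, unadjusted p = 0.155). Otx1, an orthodenticle homeobox gene, was at 9.41, 6.42 and 6.47 CPM in GSC2 tumours, against 7.80, 7.61, 0.596 and 1.10 CPM in GSC1 tumours. The first 2 GSC1 replicates lay inside the GSC2 range and the other 2 below it (0.79, SE 0.87, edgeR adjusted p = 1.0, unadjusted p = 0.391). Emx1, a cortical homeobox gene and the paralogue of Emx2, had a lower level per length and did not follow the pattern. Its levels were 0.254, 1.72 and 2.76 CPM in GSC2 tumours, against 3.42, 0.882, 0.119 and 0.476 CPM in GSC1 tumours, and rested on 3 to 118 reads per library (0.35, SE 1.13, edgeR adjusted p = 1.0). The highest value was in GSC1 replicate 1 and the lines overlapped.

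**Figure D1:**
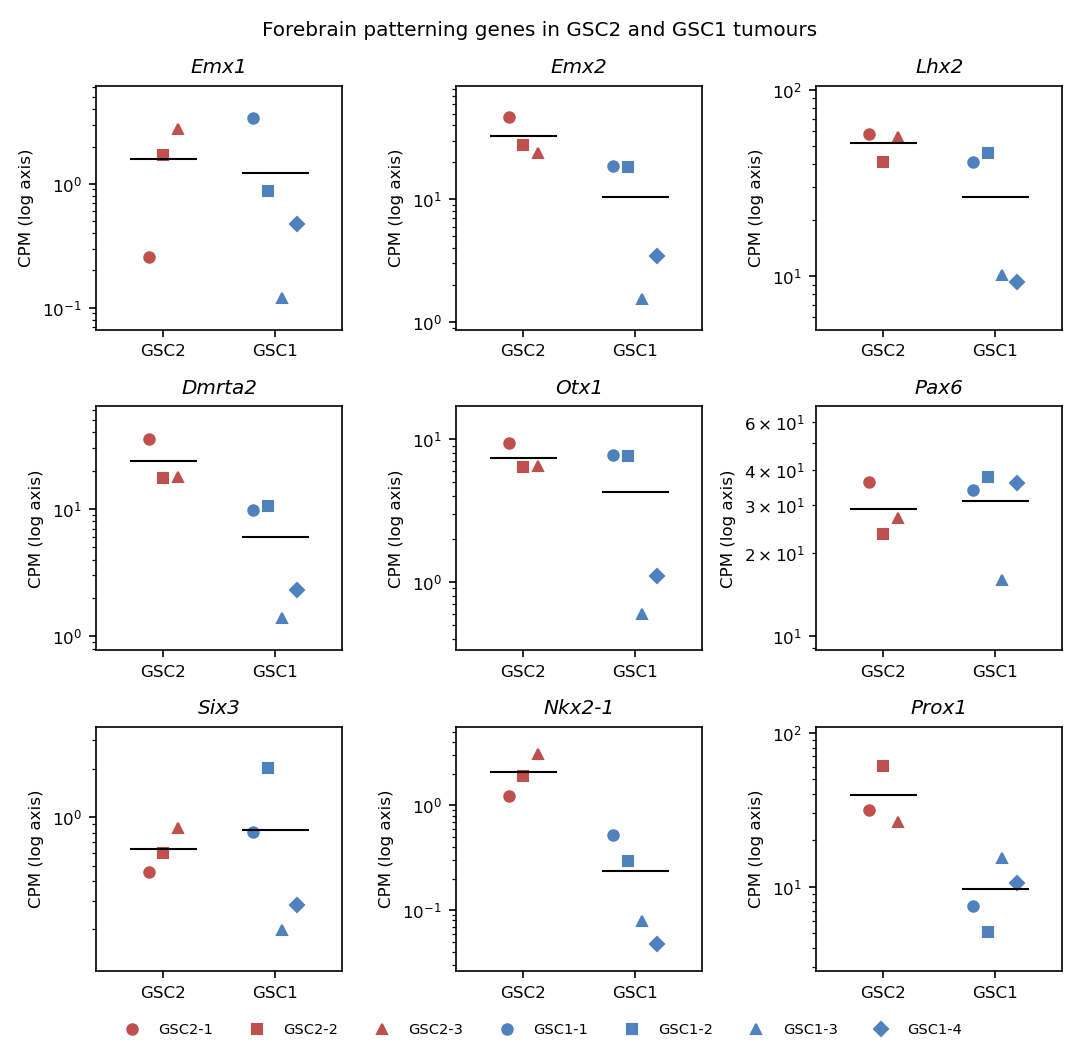
Level of each of the 9 genes in CPM (log axis) in 3 GSC2 tumours (left, red) and 4 GSC1 tumours (right, blue). Points are tumours, shapes are replicates and bars are means, and for Emx2, Dmrta2, Nkx2-1 and Prox1 the lines do not overlap, and for Lhx2 and Otx1 the spread within GSC1 comes from replicates 3 and 4.

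Pax6, a paired-box gene of dorsal telencephalic progenitors that is also expressed in cerebellar granule cells, varied least among the 9 on the log scale. It was at 36.2, 23.4 and 26.9 CPM in GSC2 tumours, against 33.7, 37.8, 15.9 and 35.9 CPM in GSC1 tumours (-0.10, SE 0.35, edgeR adjusted p = 1.0). Only GSC1 replicate 3 stood below the other tumours. In GSC1 replicate 4 Pax6 was among the higher values, and that tumour also held Cbln3, a gene of cerebellar granule cells, at 245 CPM, where no other tumour exceeded 1.31 CPM. The part of these cells in the Pax6 level was not tested.

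Among the factors of the anterior and ventral forebrain, Nkx2-1 separated the lines and Six3 did not. Nkx2-1, which specifies the medial ganglionic eminence and the hypothalamus, was at 1.22, 1.93 and 3.11 CPM in GSC2 tumours, against 0.522, 0.294, 0.0795 and 0.0476 CPM in GSC1 tumours. These levels stand for 24, 55 and 62 reads in GSC2 libraries and 18, 8, 2 and 1 reads in GSC1 libraries. All GSC2 tumours were higher, with a fitted log2 fold change of 3.08 (SE 0.83, edgeR adjusted p = 0.717, unadjusted p = 0.00679, DESeq2 adjusted p = 0.0299). Nkx2-1 is also used in thyroid and lung, and the summed level of 5 thyroid and lung genes was 0.246 to 0.602 CPM in GSC2 tumours and 0.0735 to 3.48 CPM in GSC1 tumours, highest in GSC1 replicate 4, where Nkx2-1 was lowest. Six3, a homeobox gene of the anterior neural plate, was at 0.458, 0.596 and 0.852 CPM in GSC2 tumours, against 0.811, 2.02, 0.199 and 0.286 CPM in GSC1 tumours (-0.39, SE 0.86, edgeR adjusted p = 1.0). GSC1 replicate 2 was highest and GSC1 replicates 3 and 4 were lowest, on 5 and 6 reads.

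Prox1, a homeobox gene of maturing granule neurons, had the smallest unadjusted p of the 9 factors. It was at 31.4, 60.4 and 26.2 CPM in GSC2 tumours, against 7.51, 5.11, 15.3 and 10.5 CPM in GSC1 tumours, so the lines did not overlap. The fitted log2 fold change was 2.04 (SE 0.46, edgeR adjusted p = 0.549, unadjusted p = 0.00253, DESeq2 adjusted p = 0.00903). Unlike the other factors, Prox1 was higher in GSC1 replicates 3 and 4 than in GSC1 replicates 1 and 2. Prox1 is a defining factor of lymphatic endothelium, and 4 other genes of that cell type, among which Pdpn had the most reads, summed to 81.5, 85.6 and 152 CPM in GSC2 tumours and 117, 143, 162 and 199 CPM in GSC1 tumours. Lyve1, among these 4, was low, at 0.458, 0.351 and 0.652 CPM in GSC2 tumours, against 0.782, 1.69, 2.46 and 1.95 CPM in GSC1 tumours. It was lower in GSC2 without overlap, opposite to Prox1, whereas Pdpn, Flt4 and Reln overlapped between the lines. Pdpn, at 61.7 to 136 CPM, and Reln, at 7.8 to 74.4 CPM, made up most of the sum. Flt4 was at 3.16 to 6.77 CPM, so the sum says little about Flt4 or Lyve1. Summed levels of 7 oligodendrocyte progenitor genes were 396, 703 and 623 CPM in GSC2 tumours, against 321, 291, 564 and 453 CPM in GSC1 tumours, and GSC2 replicate 2 was highest for both this sum and Prox1. The 12 thalamus and hypothalamus genes summed to 115, 489 and 110.2 CPM in GSC2 tumours, against 104, 105, 249 and 200.5 CPM in GSC1 tumours. That sum too was highest in GSC2 replicate 2, and it was higher in GSC1 replicates 3 and 4 than in GSC1 replicates 1 and 2, as Prox1 was. Within GSC1 that order came mostly from Slc17a6, also counted among the neuron genes below, at 3.51, 2.57, 199 and 97.9 CPM in replicates 1 to 4. The other genes of the list varied. Gbx2 was likewise higher in GSC1 replicates 3 and 4 (0.29, 0.184, 5.88 and 3.0 CPM). Tcf7l2 (14.5, 18.2, 5.64 and 6.57 CPM) and Lef1 (19.5, 19.1, 5.33 and 9.24 CPM) were lower there. In GSC2 replicates 1 to 3 Gbx2 was at 0.712, 10.9 and 0.551 CPM. Tcf7l2 was at 24.6, 97.4 and 10.4 CPM in these tumours, and Lef1 at 10.0, 29.2 and 4.71 CPM. Gbx2, Tcf7l2 and Lef1 were each highest in GSC2 replicate 2, as Prox1 was, whereas Slc17a6 was highest in GSC1 replicate 3. The part of lymphatic endothelium, oligodendrocyte progenitors, thalamus and hypothalamus in the Prox1 level was not tested.

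None of the 9 genes passed the test between the lines at an adjusted p of 0.05, and of all 16068 genes tested 0% passed. An unadjusted p under 0.05 was found for 3 of the 9 (Dmrta2, Nkx2-1 and Prox1), against 4.21% of all genes tested. DESeq2 called 2 of the 9, Nkx2-1 and Prox1, where it called 192 genes in all, or 1.2%, and limma-voom called none of the 9 and 1 gene in all, or 0.00622%. Without a filter on low counts edgeR called none of the 9 and 0.00437% of all genes. GSC2 and GSC1 were without overlap in 4 of the 9 genes, all 4 higher in GSC2, while 5.58% of all genes did not overlap in either direction, 3.05% being higher and 2.53% lower in GSC2. Fitted folds were positive for 7 of the 9, with a median of 0.97, where 46.3% of all genes were positive with a median of -0.03. The 9 genes were selected with earlier results of these tumours known, so these shares describe them and are no test of the list.

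The tumours with the lowest levels of forebrain factors were those with the most hindbrain transcripts. GSC1 replicates 3 and 4 were the 2 lowest of the 7 tumours for 6 of the 9 genes, Emx2, Lhx2, Dmrta2, Otx1, Six3 and Nkx2-1, whereas this held for 20.8% of all genes tested. The lowest of the other 5 tumours exceeded the higher of these 2 by 5.32 times for Emx2, 4.05 times for Lhx2, 4.30 times for Dmrta2, 5.86 times for Otx1, 3.70 times for Nkx2-1 and 1.6 times for Six3. The hindbrain and spinal cord gene Hoxb5 reached 209 CPM in GSC1 replicate 3 and 49.6 CPM in GSC1 replicate 4, with no more than 0.0501 CPM in any other tumour. The 14 hindbrain and spinal cord genes in the tables summed to 29.7, 11.9 and 6.97 CPM in GSC2 tumours, against 8.72, 9.48, 751 and 259 CPM in GSC1 tumours. Hox genes of that list did not all separate the tumours as Hoxb5 did. Hoxa3, Hoxa4 and Hoxd3 were at 8.6, 6.1 and 5.0 CPM in GSC2 replicate 1, against 8.0, 6.9 and 6.9 CPM in GSC1 replicate 4. Genes of mature forebrain neurons did not share 1 order. The 15 cortical, hippocampal and striatal neuron genes summed to 879, 1108 and 1910.0 CPM in GSC2 tumours, against 946, 327, 578 and 737 CPM in GSC1 tumours, with GSC1 replicate 2 lowest, and 5 of the 15 had GSC1 replicates 3 and 4 as their 2 lowest tumours. Ddn, a dendritic gene and 1 of these 5, was at 2.66 and 0.762 CPM in those tumours and at 47.9 CPM or more elsewhere, whereas Lamp5 was at 97.8 and 73.9 CPM there and at no more than 8.07 CPM elsewhere.

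Markers of dividing cells were lowest and scores of mature brain highest in these same 2 tumours. The summed level of 8 mitosis genes was 1199, 727 and 668 CPM in GSC2 tumours, against 979, 1378, 240.2 and 375 CPM in GSC1 tumours, and each of the 8 genes had GSC1 replicates 3 and 4 as its 2 lowest tumours. Mature brain was summarised as a brain score, which averages the log2 CPM of 13 neuron genes and of 10 mature oligodendrocyte genes. It was 6.41, 7.88 and 7.73 in GSC2 tumours, against 6.07, 4.82, 8.69 and 8.0 in GSC1 tumours. Neural stem cell genes, a check of the labelled source, were present throughout, with Sox2 at 199, 163 and 130.0 CPM in GSC2 tumours, against 122, 148, 70.8 and 72.7 CPM in GSC1 tumours. In bulk RNA, fewer cells of a type and less RNA per cell cannot be told apart, and the part of region, mature brain and cell division in the levels of the 9 genes was not tested.

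**Figure D2:**
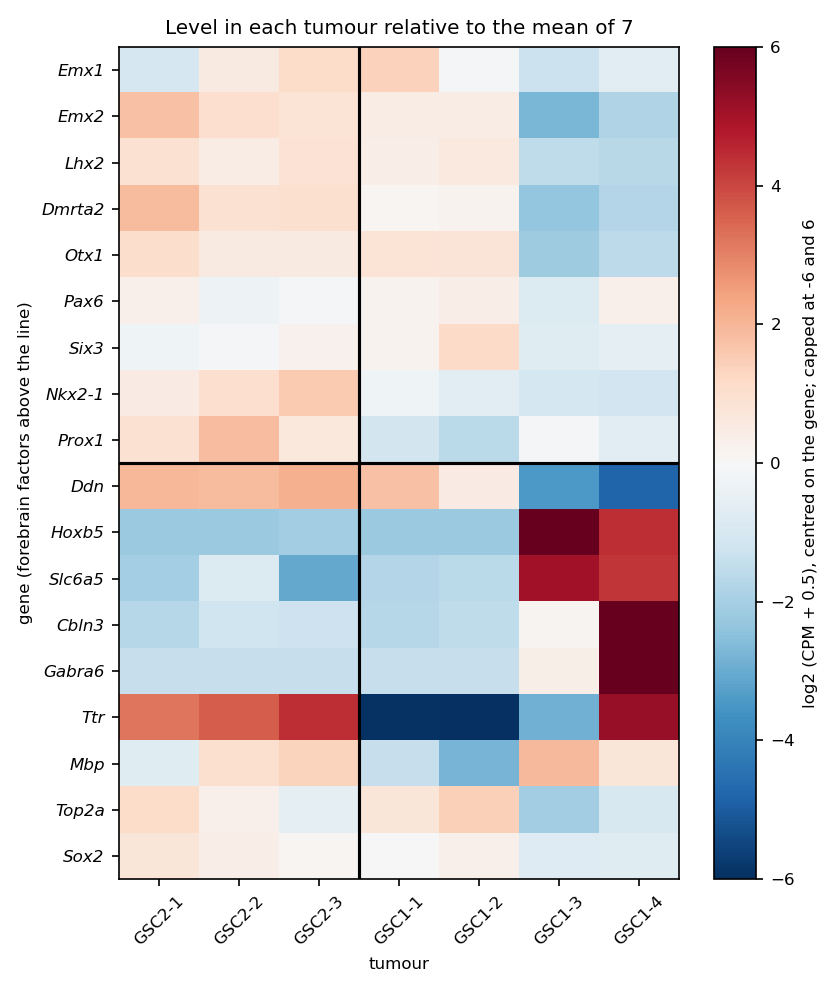
Level of the 9 genes (above the black horizontal line) and of 9 marker genes in each tumour, as log2 (CPM + 0.5) centred on the mean of each gene, with GSC2 tumours left of the vertical line. Emx2, Lhx2, Dmrta2 and Otx1 are low in the GSC1 tumours in which Hoxb5 and Slc6a5, the neuronal glycine transporter gene, are high.

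The libraries made from GSC2 replicate 3 and from GSC1 replicates 3 and 4 were poor in long transcripts. Genes whose transcripts reach 8000 bases were set against genes with transcripts up to 2000 bases, and the medians of their log2 deviations differed by 0.36, 0.64 and -0.69 in GSC2 libraries, against 0.02, 0.54, -0.40 and -0.36 in GSC1 libraries. Without these 3 libraries Lhx2 had a log2 fold change of 0.19 (SE 0.25) and Otx1 of 0.03 (SE 0.38), both within their standard error of 0. Emx2 was at 0.99 (SE 0.31, edgeR adjusted p = 0.212), Dmrta2 at 1.37 (SE 0.38, adjusted p = 0.183), Nkx2-1 at 1.93 (SE 0.66, adjusted p = 0.245) and Prox1 at 2.86 (SE 0.43, adjusted p = 0.0752). None of the 9 passed in that fit, which compares 2 tumours of each line and called 0.348% of the genes it tested. Negative folds were found for Six3 at -1.39 (SE 0.69, adjusted p = 0.394), Emx1 at -1.10 (SE 1.04) and Pax6 at -0.27 (SE 0.28). GSC1 replicates 3 and 4 were also the tumours with the most hindbrain transcripts, so this fit cannot tell transcript length from region. With an offset for transcript length and all tumours kept, Lhx2 was at 0.93 (SE 0.63) and Otx1 at 0.79 (SE 0.84). Without the offset they were at 0.97 and 0.79.

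With the brain score as a covariate, edgeR called 4 of the 9 genes, all higher in GSC2, where it called 1.4% of all genes, 0.99% as higher in GSC2. No GSC1 tumour had a brain score inside the GSC2 range of 6.41 to 7.88. The lines are thus compared along a fitted straight-line relation to the score, not between tumours of equal score. Dmrta2 had a log2 fold change of 2.70 (SE 0.27, adjusted p = 0.0128), Emx2 2.59 (SE 0.35, adjusted p = 0.0231), Prox1 1.96 (SE 0.28, adjusted p = 0.0281) and Lhx2 1.59 (SE 0.28, adjusted p = 0.0418). Otx1 (1.89, SE 0.43, adjusted p = 0.0724) and Nkx2-1 (3.59, SE 0.83, adjusted p = 0.0727) did not pass, nor did Emx1, Pax6 and Six3. The count depended on single tumours, as did that over all genes. Omitting GSC2 replicates 1 to 3 singly left 0, 3 and 4 of the 9 called, among 1, 95 and 616 genes in all. Omitting GSC1 replicates 1 to 4 singly left 2, 1, 0 and 1 of the 9, among 64, 7, 12 and 85 genes in all. Over these 7 fits the fold of Dmrta2 ranged between 2.48 and 2.92 and that of Emx2 between 2.19 and 2.89.

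The brain score was high in the tumours with the most hindbrain transcripts, where forebrain factors were low, and other scores gave other values. With a mitosis score in its place, chosen after seeing the data, Dmrta2 was at 1.71 (SE 0.21, edgeR adjusted p = 0.0137), Prox1 at 2.43 (SE 0.30, adjusted p = 0.0156) and Emx2 at 1.45 (SE 0.23, adjusted p = 0.0268). These 3 were called where 1.99% of all genes were, and Lhx2 (0.80, SE 0.24, adjusted p = 0.133), Nkx2-1 (3.02, SE 0.69, adjusted p = 0.0709) and Otx1 (0.71, SE 0.31, adjusted p = 0.286) were not. With GSC2 replicates 1 to 3 omitted singly, 0, 2 and 3 of the 9 were called, among 54, 169 and 245 genes in all. With GSC1 replicates 1 to 4 omitted singly, 0, 0, 3 and 3 of the 9 were, among 23, 1, 184 and 522 genes in all, and the fold of Dmrta2 ranged between 1.55 and 1.85 over the 7 fits. With a score of 15 cortical, hippocampal and striatal neuron genes, also chosen after seeing the data, none of the 9 and none of all genes passed, and the folds of Emx2 and Dmrta2 were 1.07 (SE 1.37) and 1.48 (SE 1.27). This score was 4.95, 4.79 and 5.09 in GSC2 tumours, against 4.76, 3.49, 3.87 and 3.51 in GSC1 tumours, without overlap. Line and score are therefore hard to separate in that fit, and its lack of calls decides nothing about forebrain neurons. Both lines hold few tumours, and the differences in these fits rest on an assumed straight-line relation between score and log2 level.

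**Figure D3:**
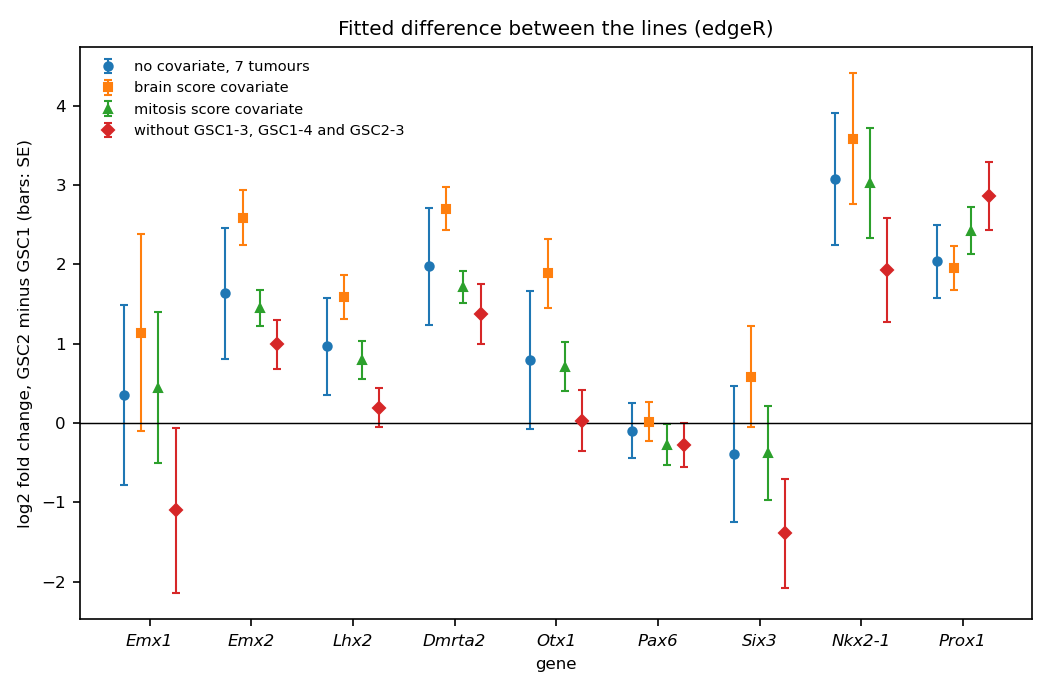
Fitted log2 fold change, GSC2 minus GSC1, of each gene with its standard error (bars) in edgeR fits with no covariate, with the brain score, with the mitosis score, and without 3 libraries. Emx2, Dmrta2, Nkx2-1 and Prox1 lie above 0 by more than their standard error in these 4 fits, though Emx2 does not with the forebrain neuron score, which is not plotted, while Lhx2 and Otx1 are near 0 without GSC1 replicates 3 and 4 and GSC2 replicate 3.

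Emx2 and Dmrta2 were the most alike pair among the 9. Likeness was the root mean square difference between log2 CPM profiles over the 7 tumours, each centred on its own mean, and it was 0.244 for this pair. Emx2 and Otx1 were 0.401 apart, Lhx2 and Otx1 0.476, and Emx2 and its paralogue Emx1 1.49. Lhx2 was 0.686 from Emx2 and 0.622 from Dmrta2, and Otx1 was 0.522 from Dmrta2. Among 13667 other genes with a mean of at least 1 CPM, Dmrta2 was the nearest to Emx2 and Emx2 the nearest to Dmrta2. The next nearest were Slfn8 for Emx2 (0.311) and Gbp4, an interferon-induced GTPase gene, for Dmrta2 (0.267).

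The nearest profiles of the other factors came from genes of various roles. Inka2 (0.213) and the homeobox gene Hlx (0.247) lay nearest to Lhx2, and the interferon-induced genes Ifit1 (0.270) and Oasl2 (0.278) nearest to Otx1. Ifit1 was at 243, 126 and 124 CPM in GSC2 tumours, against 143, 118, 12.4 and 31.9 CPM in GSC1 tumours. Galnt12 (0.132) and Fam107b (0.146) were nearest to Pax6, Aqp9 (0.295) and Ccdc171 (0.322) to Six3, and Crispld2 (0.375) and Mycn (0.411), the N-myc gene, to Prox1. Nkx2-1 had Lrrc10b (0.588) and Icam5 (0.599), and Emx1 had Ticam2 and Rtn4rl2 (both 0.838). The distances are descriptions over 7 tumours that share their tissue makeup.

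**Figure D4:**
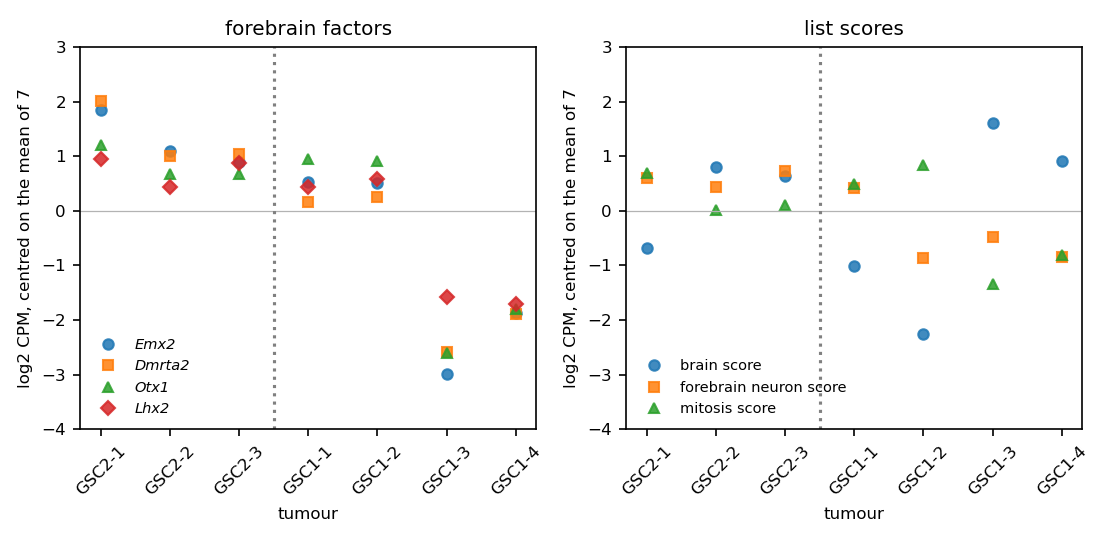
Log2 CPM of Emx2, Dmrta2, Otx1 and Lhx2 (left) and the brain, forebrain neuron and mitosis scores (right) in each tumour, centred on the mean of the 7, with GSC2 tumours left of the dotted line. Each of the 4 genes is lowest in GSC1 replicates 3 and 4, Emx2 furthest below its mean and Lhx2 least in replicate 3, and there the mitosis score is low and the brain score high.

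Other genes that pattern the forebrain showed both directions. Of 42 such genes on a list, 41 were in the tables, 31 were tested and 0 passed over all genes, 8 having an unadjusted p under 0.05. Folds were positive for 20 and negative for 11 of the 31, with a median of 0.75. GSC2 and GSC1 were without overlap in 8 genes that were higher and 1 that was lower in GSC2, and 13 of the 31 had GSC1 replicates 3 and 4 as their 2 lowest tumours. Among the 16068 genes tested, 4.21% had an unadjusted p under 0.05, and 3.05% were higher and 2.53% lower in GSC2 without overlap. GSC1 replicates 3 and 4 were the 2 lowest tumours for 20.8%. Dmrt3 alone of the 31 passed when the brain score was added to the fit, which called 1.4% of the genes tested. The list was chosen with earlier results of these tumours known, so the counts describe it and do not test it.

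Dmrt3, a DM-family relative of Dmrta2 in the medial cortex, was near the floor. It was at 0.458, 0.772 and 1.8 CPM in GSC2 tumours, against 0, 0.0368, 0 and 0 CPM in GSC1 tumours, where the only nonzero value stands for 1 read. Barhl2, a homeobox gene of the diencephalon, was at 55.4, 18.7 and 12.3 CPM in GSC2 tumours, against 3.83, 4.89, 2.19 and 7.62 CPM in GSC1 tumours (2.64, SE 0.62, edgeR adjusted p = 0.618). Sp8, a zinc-finger gene of the anterior cortex and of migrating interneurons, was at 4.48, 3.05 and 15.5 CPM in GSC2 tumours, against 0.638, 0.588, 0.0398 and 0 CPM in GSC1 tumours. Gsx1, a ventral telencephalic homeobox gene, was at 5.09, 1.96 and 2.16 CPM in GSC2 tumours, against 1.45, 0.882, 0.835 and 0.571 CPM in GSC1 tumours. All GSC2 tumours exceeded all GSC1 tumours for these 4 genes.

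Lhx9, a LIM-homeobox gene of the diencephalon, was likewise at 4.02, 15.7 and 3.91 CPM in GSC2 tumours, against 0.348, 0.662, 2.90 and 1.52 CPM in GSC1 tumours. Lhx1, another LIM-homeobox gene, went the other way, at 0, 0.631 and 1.91 CPM in GSC2 tumours, against 8.78, 9.85, 5.96 and 13.95 CPM in GSC1 tumours (-3.51, SE 1.11, edgeR adjusted p = 0.955). It was the gene that was lower in GSC2 without overlap.

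Nr2e1, a nuclear receptor gene of adult neural stem cells, was at 7.17, 8.98 and 7.92 CPM in GSC2 tumours, against 5.74, 3.79, 0 and 0.571 CPM in GSC1 tumours. Otx2, the orthodenticle gene that choroid plexus also uses, had another order, at 6.21, 10.1 and 17.7 CPM in GSC2 tumours, against 1.13, 0.919, 0.358 and 44.9 CPM in GSC1 tumours. Ttr, the main choroid plexus gene, was at 2026, 2650 and 4579 CPM in GSC2 tumours, against 3.01, 0.551, 28.7 and 8165 CPM in GSC1 tumours. Both Otx2 and Ttr were thus highest in GSC1 replicate 4, and the part of choroid plexus in the Otx2 level was not tested.

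Several of the 9 genes have antisense neighbours in the GENCODE M21 annotation, and the strand setting of the counting is not given in the sources used here. Reads on the shared parts can therefore not be told apart. Emx2os, antisense to Emx2, was at 2.54, 1.19 and 1.20 CPM in GSC2 tumours, against 0.898, 0.809, 0.278 and 0.381 CPM in GSC1 tumours (1.46, SE 0.61, edgeR adjusted p = 1.0), and its lines did not overlap, as for Emx2. Six3os1, which runs opposite Six3, was at 4.02, 6.56 and 5.97 CPM in GSC2 tumours, against 10.4, 9.63, 1.67 and 0.809 CPM in GSC1 tumours, and like Six3 it was lowest in GSC1 replicates 3 and 4. Pax6os1 reached 1.67 CPM in GSC1 replicate 4 and at most 0.21 CPM in any other tumour, and Dmrta2os, which is not among the overlapping genes, at most 0.251 CPM. Prox1os, opposite Prox1, had 5, 47 and 24 reads in GSC2 libraries, against 3, 1, 32 and 23 reads in GSC1 libraries. Like Prox1 it was highest in GSC2 replicate 2 and higher in GSC1 replicates 3 and 4 than in GSC1 replicates 1 and 2.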

How the data were processed

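Each tumour has a table of raw counts that the authors deposited, with reads assigned to Ensembl genes. The submitters' processing notes list TopHat2 2.0.11, HTSeq and the builds mm9 and dm3, with no role for any. How strand was treated is not stated there. The 5 summary lines were left out (6.19 to 14.2% of reads on no gene, 12.8 to 21% without a unique position). GENCODE M21, of a later build, gave symbols and transcript lengths, and its coordinates were used to find genes overlapping the 9 and are not printed.

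Groups and replicate numbers came from the titles. The test was that of edgeR 4.0.16 under R 4.3.3 (filterByExpr, TMM, robust quasi-likelihood, Benjamini-Hochberg over 16068 genes, threshold 0.05). DESeq2 1.42.0 and limma 3.58.1 were alternatives. No pair of libraries was alike within counting error (lowest chi-square 66.5 per degree of freedom). On counts simulated for 15711 genes, the test recovered 4, 46, 72 and 90% of 50 genes changed 2, 4, 8 and 16-fold, with 4 false calls.

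The 9 genes and the lists were chosen with earlier results of these data known. Named genes were the 9, the 2 nearest profiles of each with predicted genes left out, the 6 listed forebrain genes of smallest p with Otx2 and Nr2e1 (1 further gene of the rule is not reported here), the antisense partners, and Hoxb5, Slc6a5, Cbln3, Gabra6, Ddn and Ttr as region markers. Mitosis, stem and progenitor, lymphatic, thyroid and lung genes came from the lists. Sox2, Lamp5, Pdpn, Lyve1, Flt4, Reln, Slc17a6, Gbx2, Tcf7l2, Lef1, Hoxa3, Hoxa4, Hoxd3 and Prox1os were named after their values were seen.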

Additional observations from a re-analysis of the deposited data

How the results depend on the processing

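The number of the 9 genes called between the lines was 0 in edgeR's main test and also under RLE factors, upper-quartile factors, an absent filter, a 5 CPM filter, limma-voom, a 1.5-fold threshold test, the length offset, the forebrain neuron score, or without the 3 libraries poor in long transcripts. It was 2 in DESeq2, 4 with the brain score, 4 with the brain score and length offset, and 3 with the mitosis score, and 0 without any single tumour. The number of all genes called was 0 in the main test, 1 without a filter, 192 in DESeq2, 1 in limma-voom, 225 with the brain score, 485 with the score and length offset, 55 without the 3 libraries, 320 with the mitosis score and 0 without any single tumour. With each tumour left out in turn the 9 genes gave 0 to 4 calls with the brain score and 0 to 3 with the mitosis score. The causes were not tested.

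Among refitted folds 161 kept direction and call, 13 passed the threshold anew and 12 changed sign, all of them for Emx1, Pax6 and Six3. Emx1 was at -1.10 without the 3 libraries, -0.05 without GSC1 replicate 3, -0.29 without GSC2 replicate 3 and -1.18 with the forebrain neuron score. Pax6 was at 0.05 with the replicate block, 0.02 with the brain score, 0.02 without GSC1 replicate 2 and 0.03 without GSC2 replicate 2. Six3 was at 0.07 in limma-voom, 0.58 with the brain score, 0.56 with score and length offset and 0.53 without GSC1 replicate 2. Leaving out single tumours moved Lhx2 between 0.66 and 1.36, Otx1 between 0.40 and 1.26, Emx1 between -0.29 and 1.67, Pax6 between -0.35 and 0.03, Six3 between -0.74 and 0.53, Emx2 between 1.24 and 2.06, Dmrta2 between 1.56 and 2.39, Nkx2-1 between 2.68 and 3.81 and Prox1 between 1.59 and 2.32.

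Replicate numbers are shared between the lines in the titles, which do not say what they stand for. Same-numbered tumours deviated together with correlations of 0.58, -0.31 and 0.41. The long-transcript measure was 0.02 and 0.36 in replicate 1 of GSC1 and GSC2, 0.54 and 0.64 in replicate 2, and -0.40 and -0.69 in replicate 3. Whether same-numbered tumours shared a processing step was not tested. With the number as a replicate block 0 of the 9 genes and 0 of all genes were called. Nkx2-1, Emx1 and Six3 rest on at most 118 reads per library. Their standard errors were 0.83, 1.13 and 0.86, against 0.83 for Emx2, which had more reads. Without the 3 libraries poor in long transcripts they were 0.66, 1.04 and 0.69, against 0.31 for Emx2.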
